A study of Mus musculus and Homo sapiens with 17 samples.

Results

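The mitosis and spindle genes are 40 genes, written down by name, whose products carry a cell from the end of G2 through chromosome segregation to cytokinesis. They were found by matching the gene symbol in the mouse count table and its upper-case form in the A431 count table. All 40 were among the 54532 named features of the mouse table, and 39 were among the 58735 named features of the A431 table, where KIF4 matched no feature. The rule uses no measured value. All 40 mouse and 39 human members passed the filter on low counts, so each is tested below. The members fall into 9 roles: cyclins and CDK1 with its activators (7 genes), mitotic kinases (3), the spindle checkpoint (4), the chromosomal passenger complex (4), centromere and outer kinetochore (6), spindle motors and microtubule proteins (6), anaphase and proteolysis (3), midzone and cytokinesis (5), and chromosome structure with the proliferation marker Ki-67 (2). The first role also takes in the transcription factor gene Foxm1 and the kinase gene Melk.

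These genes are transcribed in one wave late in the cell cycle. DREAM and related repressor complexes hold them silent in resting cells, and B-MYB with the MuvB core and then FOXM1 turn them on, through a short promoter element called CHR (cell cycle genes homology region) and through CCAAT boxes bound by NF-Y. In skin the wave runs in basal keratinocytes and in the matrix of growing hair follicles, and stops when a keratinocyte leaves the basal layer to differentiate, which is why pathologists stain Ki-67 to count cycling cells in squamous tumours.

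RNA was sequenced from whole frozen sections of mouse skin and skin tumours and from human A431 tumour cells, to compare squamous cell carcinoma (SCC) with and without DUSP1. DUSP1 is a phosphatase that switches off MAP kinases. All mice were of the strain C57BL/6-129 and had been treated with DMBA, a carcinogen, and TPA, a tumour promoter, also those that gave the skin. The groups were WT skin (3 libraries), WT SCC (3), papilloma labelled DUSP1 KO (3) and SCC labelled DUSP1 KO (2). A431 is an established line from a squamous carcinoma. Cells with a guide RNA against Tomato, the control, or against DUSP1 were each injected into the skin of mice at 100000 cells, grew for 3 weeks and were recovered after mouse cells were depleted, with 3 libraries per guide. DUSP1 guide libraries 2 and 3 carry the same sample descriptor and may stem from 1 sample. Their counts differed beyond sampling noise, by a chi-square of 4.79 per degree of freedom against 3.34 to 6.44 among controls and 10.9 and 12.1 between each of them and library 1. With both summed as 1 sample, an alternative added after the data were seen, the A431 calls stayed at 32 lower and 1 higher. Of all 19082 genes then tested, 4043 were called lower and 3953 higher. Among the mouse groups there is no KO skin and no WT papilloma. Genotype and tissue thus cannot be told apart where either group labelled KO is compared with WT skin. The same holds for papilloma against WT SCC.

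Depth ran from 34.4 to 47.9 M counts in the mouse libraries and from 41.2 to 53.5 M in those of A431, where M stands for 1e6, and the least covered member value was 173 counts in mouse and 39 in A431. Levels are given as CPM, counts divided by the scaled library size in units of 1e6. They depend on transcript length and are compared between libraries, not between genes. Calls are from edgeR's quasi-likelihood test with Benjamini-Hochberg adjustment over all genes of a comparison, at an adjusted p of 0.05, and log2 fold changes are given ± SE. Whether each library is its own animal or culture is not stated, so a p-value measures only library-to-library spread, which may be technical. That spread was wide in WT skin, where the median member had a coefficient of variation of 37.5%, against 8.38% in WT SCC, 12.6% in papilloma, 10.9% in SCC labelled KO and 2.84% and 4.54% in the A431 groups.

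Several checks of the labels bear on the mouse groups. Dusp1 transcript was not lower in the libraries labelled KO: WT SCC held 73.3, 83.7 and 66.6 CPM, the papillomas 129, 109 and 109.6 CPM, and SCC labelled KO 139 and 174 CPM. Gene-level counts cannot tell which exons an allele removes, and directions below refer to the labels. Under the DUSP1 guide, A431 cells held 6.42-fold less DUSP1 transcript than under the control guide. Counts from Y chromosome genes were held by libraries 1 and 2 of WT skin and library 2 of SCC labelled KO. For Ddx3y these were 2295, 3258 and 1624 counts, while the other 8 mouse libraries held at most 3. Both groups thus mix libraries with and without Y counts. Results against skin are also given without each of these skin libraries in turn, not without both. Only the comparison of the carcinomas is given without library 2 of SCC labelled KO. Library 2 of SCC labelled KO also held Xist, an RNA of female cells, at 15.3 CPM, against 203 CPM in library 1 and 0.0745 and 0.705 CPM in the Y-positive skin libraries. Whether it holds RNA of more than 1 animal was not tested. The labels name keratinocytes, but sections held other cells: skeletal muscle markers summed to 5720 to 6692 CPM in WT skin against 5.74 to 116 CPM in the lesions. In such bulk samples fewer cycling cells and less mitotic RNA per cell cannot be told apart.

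To show what the members share around their starts, the promoter windows of RefSeq (build GRCm38.p6) were searched on both strands. These reach from 250 bases before to 50 after the start. The motifs were the CHR element, TTTGAA or TTCAAA, and the CCAAT box, CCAAT or ATTGG. The table held windows for 32 of the 40 members, 34 windows in all. Missing were Ccna2, Cdc25c, Foxm1, Aurkb, Incenp, Tpx2, Dlgap5 and Kif20a. A CHR element lay in 76.5% of the member windows, against 17.9% of all 32851 windows. A CCAAT box lay in 79.4% against 37.4%, and both motifs in 67.6% against 6.95%. For the 27 genes of S phase, the replication wave that comes earlier in the cycle, 26 windows of 21 genes were found: 11.5% held a CHR element, 57.7% a CCAAT box and 7.69% both. The CHR matches sat close to the start, 25 of 33 within 40 bases of it on either side, in 22 genes. Of the 33, 17 lay downstream of the start in 15 genes and 15 upstream in 11. Ect2 and Prc1 have 2 windows each, so sites in both windows are counted again in these match totals. Of 64 CCAAT matches, 43 lay 1 to 100 bases upstream, in 23 genes. Only 1 pair of matches of different motifs overlapped. A match describes letters in a window and is not evidence of binding.

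The following 7 windows directly upstream of the RefSeq start are printed 5′ to 3′ on the strand of the gene, with both motifs in capitals. In the GENCODE M21 annotation, 26 bases of the Cdk1 window, 9 of Cdc20 and 27 of Espl1 already lie inside the gene. Cdk1, Cdc20, Kif11 and Top2a show at least 1 CCAAT box upstream of a CHR element near the start. Cdc20 has a further CCAAT box between its CHR element and the start. Mki67 has its pair of CHR elements farther out. Espl1 is shown because it carries both motifs but did not follow the other members, and Ttk because it had the smallest p between the carcinomas; its CHR element lies just past the start and so outside the printed stretch. They lie at chr10:69352913-69353012 (minus strand), chr4:118437344-118437443 (minus strand), chr19:37376282-37376381 (plus strand), chr11:99024190-99024289 (minus strand), chr7:135716380-135716529 (minus strand), chr15:102296193-102296292 (plus strand) and chr9:83834589-83834688 (plus strand).
Cdk1: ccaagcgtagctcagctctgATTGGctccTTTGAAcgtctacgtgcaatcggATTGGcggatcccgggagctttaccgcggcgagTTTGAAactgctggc
Cdc20: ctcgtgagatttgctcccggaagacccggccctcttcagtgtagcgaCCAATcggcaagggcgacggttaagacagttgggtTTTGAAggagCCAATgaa
Kif11: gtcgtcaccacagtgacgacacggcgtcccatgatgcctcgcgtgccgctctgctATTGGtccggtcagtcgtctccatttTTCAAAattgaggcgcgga
Top2a: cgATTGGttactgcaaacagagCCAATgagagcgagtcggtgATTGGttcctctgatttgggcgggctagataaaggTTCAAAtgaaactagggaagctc
Mki67: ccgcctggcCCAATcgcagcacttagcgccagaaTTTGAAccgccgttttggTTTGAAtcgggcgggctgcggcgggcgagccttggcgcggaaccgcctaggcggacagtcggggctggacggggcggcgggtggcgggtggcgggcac
Espl1: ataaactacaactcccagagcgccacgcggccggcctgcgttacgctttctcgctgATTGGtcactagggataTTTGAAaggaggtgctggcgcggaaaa
Ttk: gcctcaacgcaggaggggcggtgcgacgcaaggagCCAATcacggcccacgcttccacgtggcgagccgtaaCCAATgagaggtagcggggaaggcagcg

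**Figure D1:**
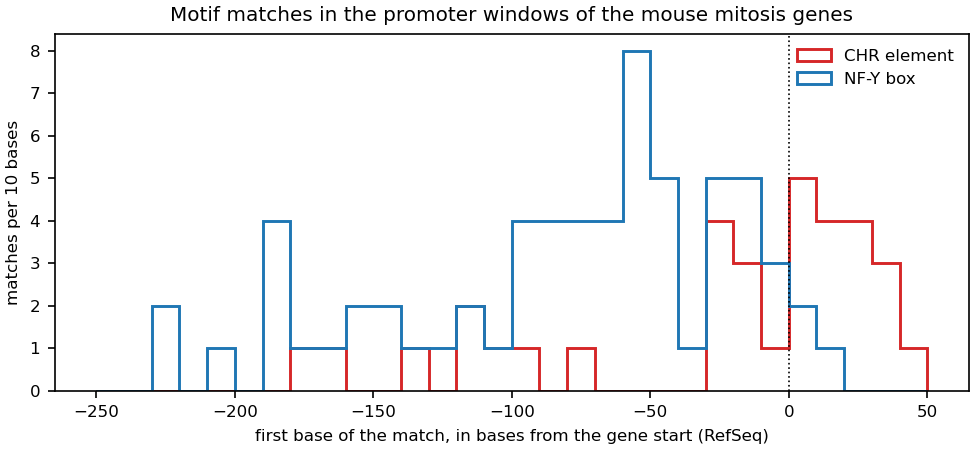
Positions of CHR and CCAAT (NF-Y) matches in the promoter windows of the mouse members, as matches per 10 bases against distance of the first base from the RefSeq start. CHR matches crowd around the start, with 25 of 33 within 40 bases of it, and CCAAT matches upstream of it, with 43 of 64 at 1 to 100 bases.

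Across the mouse libraries the members varied together. Their summed level was 515, 929 and 1203 CPM in WT skin, 1698, 1634 and 1572 CPM in WT SCC, 1841, 1742 and 1667 CPM in the papillomas and 2836 and 2369 CPM in SCC labelled KO. The skin libraries lay below all lesions, WT SCC and papilloma overlapped, and both carcinomas labelled KO lay above every other mouse library. Library 1 of WT skin was the lowest mouse library for all 40 members, and library 1 of SCC labelled KO was the highest for 31. By group mean, 27 members followed the order WT skin, WT SCC, papilloma, SCC labelled KO, and 12 the same order with papilloma and WT SCC exchanged. WT SCC and papilloma, the neighbours in the middle, differed by the test for no member. Espl1, which encodes separase, the protease that opens the cohesin ring at anaphase, was the exception, with its lowest mean in SCC labelled KO and its highest in papilloma. As a description over the 11 libraries, which share the scaling of whole libraries, Pearson's r of a member's level with the mean of the other members was lowest for Espl1 (0.22) and Foxm1 (0.80).

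**Figure D2:**
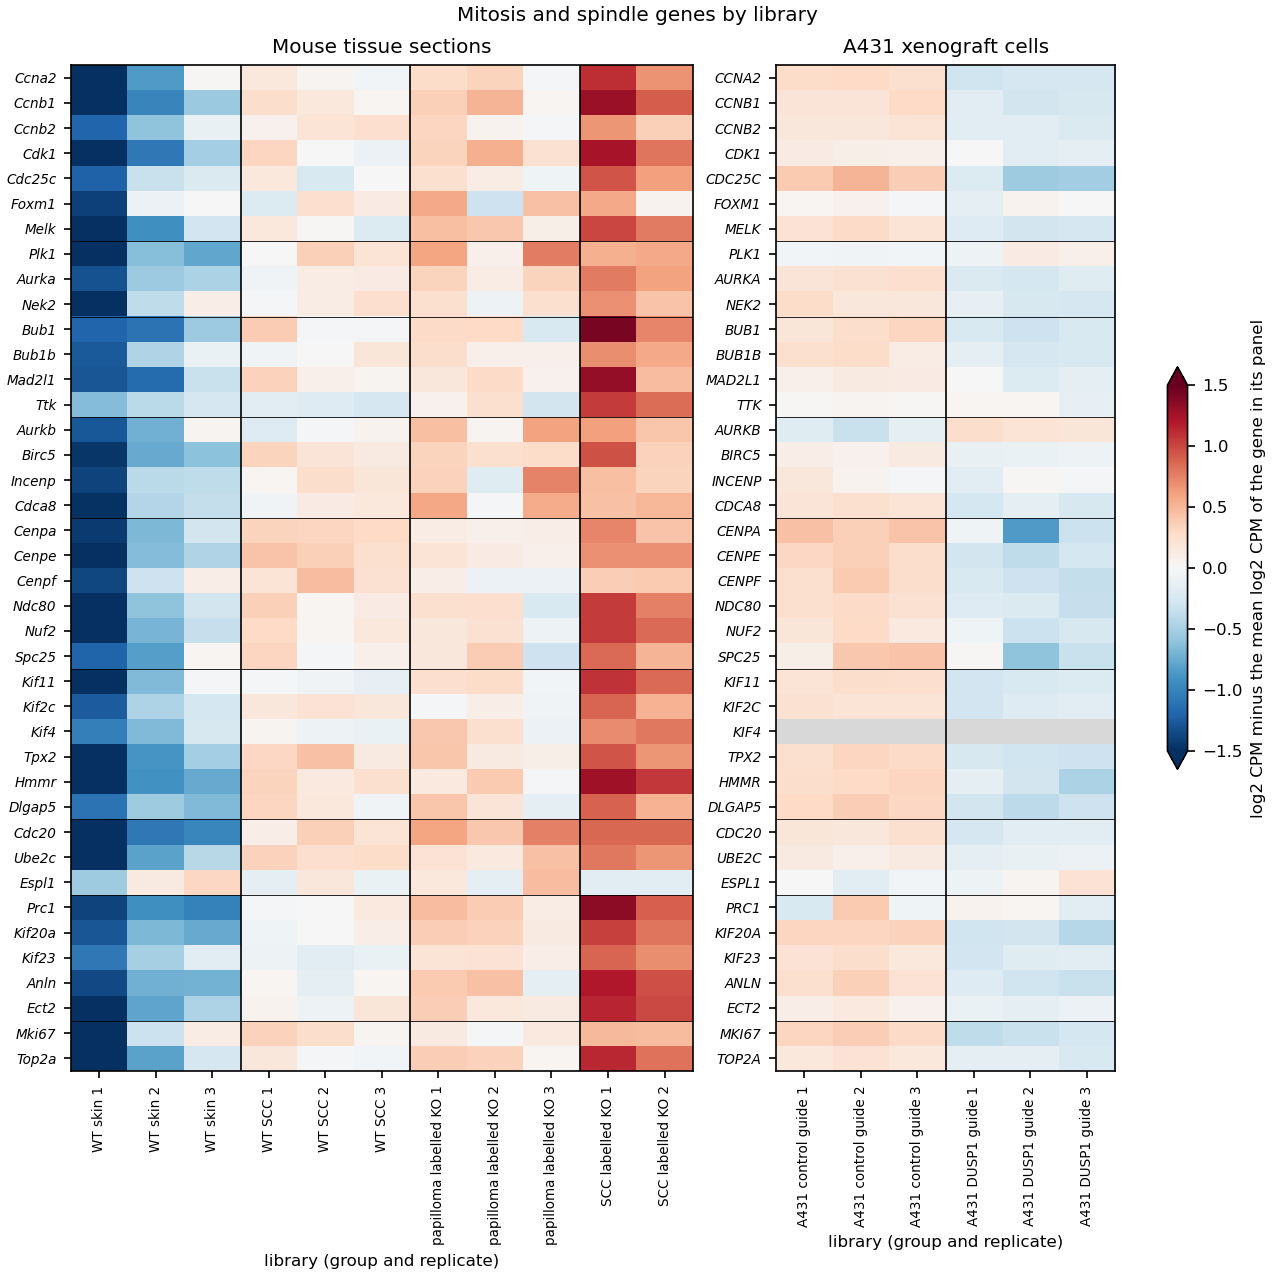
Level of each member in each library as log2 CPM minus the gene's mean in its panel (rows are genes in role order, columns are libraries, colour runs from blue below to red above the mean; KIF4 matched no human feature and is grey). Library 1 of WT skin is lowest in all 40 mouse rows, and the A431 rows fall under the DUSP1 guide except for a few such as AURKB.

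Against WT skin, all 3 kinds of lesion held more mitotic RNA. For both groups labelled KO this comparison changes the genotype label as well as the tissue. In WT SCC 27 of 40 members were called higher and 0 lower, where 16.9% of all 22371 genes tested were called higher and 23.6% lower. The median member change was 0.84 on the log2 scale, against -0.16 over all genes. In the papillomas labelled KO 32 were higher and 0 lower (17.1% and 22.4% of all genes), with a median of 0.95 against -0.22. In SCC labelled KO 36 were higher and 0 lower (20.5% and 24.3% of all genes), with a median of 1.52 against -0.30. The lesion libraries lay above all skin libraries for 30, 31 and 39 members, where 24.8%, 21.1% and 28.3% of all genes did, and below for 0, where 29.9%, 28.4% and 36.3% did. These 3 comparisons share the skin libraries, so their values stand side by side and are not independent. No member was lower at an unadjusted p below 0.05 in any of them, nor by DESeq2. Without each Y-positive skin library in turn the counts were 21 and 22 for WT SCC and 25 and 25 for papilloma. For SCC labelled KO they were 37 and 34. Over the 21203 and 21333 genes then tested, 3050 and 3094, 3289 and 3163, and 4090 and 3865 were called higher. Without library 3, the skin library almost free of Y counts, the member counts were 37, 38 and 38. Of 22034 genes 4093, 4009 and 4579 were then called higher.

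Hair follicle matrix is a cycling compartment of skin. Markers of hair matrix and hair shaft, read together, moved across the skin libraries. Of 6 listed genes 5 were in the table. They summed to 14.3, 67.6 and 453 CPM in libraries 1 to 3, against 3.58 to 46.7 CPM in the lesions. The sum does not separate matrix from shaft. Basal keratinocyte markers summed to 11510, 14410 and 6714 CPM in skin, 35980 to 38360 CPM in WT SCC, 36090 to 58580 CPM in papilloma and 49120 and 45400 CPM in SCC labelled KO. Per 1000 CPM of basal markers the members summed to 44.8, 64.4 and 179 CPM in skin, 42.6 to 44.8 in WT SCC, 31.4 to 48.3 in papilloma and 57.7 and 52.2 in SCC labelled KO. On this scale skin no longer lay below the lesions, while SCC labelled KO still lay above WT SCC. The scale is a sum and does not follow most of its genes between the carcinomas. There 6 of 7 basal markers lay lower in SCC labelled KO without overlap and 1 higher, with a median log2 change of -0.71. Of all genes 23.7% lay lower without overlap and 22.9% higher. By edgeR 1 of the 7 was called lower and 0 higher, where 3.38% and 4.48% of all genes were. The part of cell composition in the results was not tested.

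Between the carcinomas, 8 members were called higher in SCC labelled KO than in WT SCC and 0 lower, where 4.48% of all genes were called higher and 3.38% lower. The 8 were Ttk, Prc1, Anln, Kif20a, Kif23, Ect2, Bub1 and Kif4, so all 5 members of midzone and cytokinesis, 2 of 4 of the spindle checkpoint and 1 of 6 motors passed, and none of the other 6 roles. At an unadjusted p below 0.05 there were 24 higher and 0 lower, where 5537 of 22371 genes passed in either direction. The median change was 0.63 against -0.01 over all genes. The 2 carcinomas labelled KO lay above all 3 WT SCC libraries for 37 of 40 members and below for 1, Espl1, where 22.9% of all genes lay above and 23.7% below. All of these calls need library 1 of SCC labelled KO. Without it the median member change was 0.53 against -0.02 over all genes. Without library 2, which holds Y counts, it was 0.74 against -0.03. Calls over all genes were also fewer in both fits, so the loss of calls is not particular to the members. In both cases the lone library is taken to vary like the other groups. Without library 1, 2 or 3 of WT SCC 3, 2 and 4 passed. Of all genes 519 of 22298, 258 of 22242 and 427 of 22234 were then called higher. The count was 18 with DESeq2, 18 without the filter, and 28 when only these 2 groups were fitted. Over all genes 2036 of 22371, 1485 of 37371 and 2152 of 18463 were called higher there, against 1003 of 22371 in the fit used here.

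Between papillomas labelled KO and WT SCC no member passed. By edgeR 0 members were called either way (3.49% of all genes were higher and 1.77% lower). At an unadjusted p below 0.05 there were 0 of 40 members, and 4333 of 22371 genes. DESeq2 also called 0 members, where it called 1415 of all genes higher and 817 lower. Member changes ran from -0.33 to 0.44 on the log2 scale. The papillomas lay above all WT SCC libraries for 3 members, where 13% of all genes did, and below for 4 (Cenpa, Cenpe, Cenpf and Kif2c), where 13.5% did. SCC labelled KO against papilloma labelled KO gave 0 calls as well, where 0.0492% of all genes were called higher and 0.237% lower. Here 19 members were higher at an unadjusted p below 0.05, where 3493 of 22371 genes passed in either direction. DESeq2 called 7 members higher, and 417 of all 22371 genes. The carcinomas lay above all papillomas for 34 of 40 members (16.1% of all genes) and below for 1, Espl1 (15.5%), with a median change of 0.58 against -0.05 over all genes. The smallest adjusted p was 0.0658, for Ttk. Markers of suprabasal, differentiating keratinocytes summed to 2148 to 2493 CPM in WT SCC, 6478 to 9009 CPM in papilloma and 1848 and 2069 CPM in SCC labelled KO. Of these 6 genes 5 were called higher in papilloma than in WT SCC, and 3 lower in SCC labelled KO than in papilloma. Their part in the results was not tested.

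In A431 cells the members went down under the DUSP1 guide. Of 39 members 32 were called lower and 1 higher, where 24.5% of all 18090 genes tested were lower and 23.1% higher. The median member change was -0.43 on the log2 scale (1.34-fold lower), against 0.01 over all genes. Their summed level was 2356, 2408 and 2361 CPM under the control guide and 1832, 1816 and 1819 CPM under the DUSP1 guide, with no overlap. The guide libraries lay below all controls for 32 members and above for 1, where 28.2% and 26.8% of all genes did. AURKB was the one member called higher. FOXM1, PLK1, TTK, INCENP, ESPL1 and PRC1 did not pass. The changes were small and tight: the largest fall called was that of CDC25C, at -0.84 on the log2 scale. PRC1 held only 39 to 77 counts per library. The counts by role below are to be read beside the shares of all genes given above for the same comparison.

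**Figure D3:**
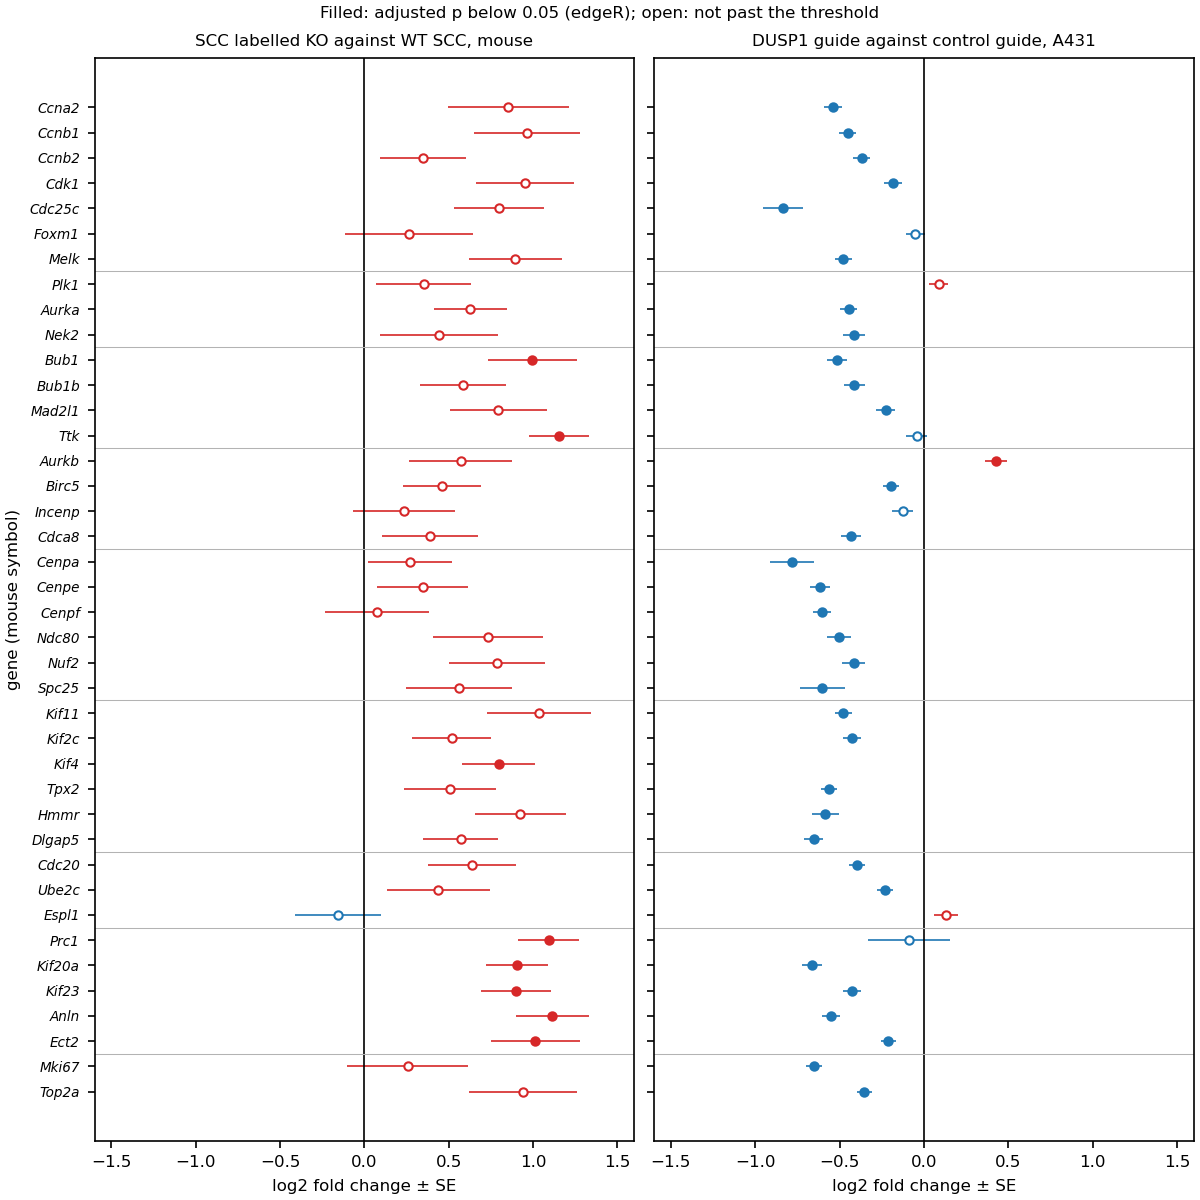
Log2 fold change ± SE of each member between the carcinomas of mouse (left, SCC labelled KO minus WT SCC) and between the guides in A431 (right, DUSP1 guide minus control guide), with genes in role order and filled points past an adjusted p of 0.05. Mouse points lie right of 0 except Espl1, and 36 of 39 human points lie left of 0.

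Among the cyclins and CDK1 with its activators, every mouse gene had its lowest group mean in skin and its highest in SCC labelled KO. Only steps from skin passed, and none between the lesions. Cdk1 stood at 20.1, 32.6 and 48.1 CPM in WT skin, 85.5, 68.6 and 64.3 CPM in WT SCC, 86.3, 99.1 and 80.3 CPM in the papillomas and 162 and 119.6 CPM in SCC labelled KO. Cdk1 is the kinase that drives entry into mitosis. Every lesion lay above every skin library, and the carcinomas labelled KO lay above all others. Against skin, Cdk1 rose by 1.11 ± 0.27 (adjusted p = 0.00685) in WT SCC, 1.4 ± 0.27 (adjusted p = 0.00193) in papilloma and 2.07 ± 0.29 (adjusted p = 0.000245) in SCC labelled KO, on the log2 scale. Its change between the carcinomas was 0.95 ± 0.29 (adjusted p = 0.0687), short of the threshold. Ccnb1 was 18.5, 36.8 and 49.9 CPM in WT skin, 88.2, 81.9 and 74.8 CPM in WT SCC, 93.8, 105 and 74.7 CPM in the papillomas and 181 and 138 CPM in SCC labelled KO. Its product, cyclin B1, is the partner that activates Cdk1. Ccnb1 rose 4.54-fold from skin to SCC labelled KO, and the groups there did not overlap. Foxm1 measured 5.29, 13.1 and 13.8 CPM in WT skin, 12.1, 16.6 and 15.1 CPM in WT SCC, 20.7, 11.3 and 19 CPM in the papillomas and 20.6 and 14.5 CPM in SCC labelled KO. Foxm1 is the transcription factor of the late wave, and its groups overlapped in every comparison but SCC labelled KO against skin, where the change of 0.71 ± 0.38 (adjusted p = 0.149) did not pass. The remaining members were Ccna2, Ccnb2, the phosphatase gene Cdc25c and the kinase gene Melk. Ccnb2 and Melk were called higher than skin in all 3 lesions and Ccna2 and Cdc25c passed in SCC labelled KO, at 0.0043 and 0.00224.

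In A431, 6 of these 7 genes fell under the DUSP1 guide. CDK1 was 64.4, 62.8 and 62.3 CPM under the control guide and 59.5, 53.2 and 53.9 CPM under the DUSP1 guide, a fall of 0.18 on the log2 scale with an adjusted p of 0.00937. The groups did not overlap, but without library 2 of the DUSP1 guide the adjusted p was 0.0686. CCNB1 was 107, 106 and 114 CPM under the control guide and 82.8, 77.4 and 79.2 CPM under the DUSP1 guide, and changed by -0.45 ± 0.05 (adjusted p = 9.58e-07). CDC25C, whose phosphatase removes the inhibitory phosphates of CDK1, changed by -0.84 ± 0.12 (adjusted p = 1.36e-05) and CCNA2, cyclin A2, by -0.54 ± 0.05 (adjusted p = 2.44e-07). FOXM1 was 56.4, 57.5 and 54.3 CPM under the control guide and 50.1, 57.3 and 55.1 CPM under the DUSP1 guide. Its groups overlapped, and its change of -0.05 ± 0.06 (adjusted p = 0.494) did not pass.

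Of the mitotic kinases, Plk1 and Aurka were called higher than skin in all 3 lesions, and none passed between the carcinomas. Plk1 stood at 6.98, 14.3 and 13 CPM in WT skin, 22.4, 28.7 and 25.7 CPM in WT SCC, 33.6, 23.5 and 37.9 CPM in the papillomas and 32.2 and 33.1 CPM in SCC labelled KO. Plk1 triggers mitotic entry and builds the spindle poles. All lesions lay above skin, at 1.16 ± 0.26 (adjusted p = 0.00449) for WT SCC, and the papillomas spanned the range of the carcinomas labelled KO. Nek2, a centrosome kinase, passed in SCC labelled KO against skin, at 1.01 ± 0.35 (adjusted p = 0.035); its values in WT SCC and papilloma were 0.57 ± 0.32 and 0.60 ± 0.32. In A431 AURKA and NEK2 fell, by 0.45 and 0.41 on the log2 scale. PLK1 was 58.8, 58.3 and 58.4 CPM under the control guide and 57.4, 65.7 and 63.5 CPM under the DUSP1 guide, with overlapping groups and a change of 0.09 ± 0.06 (adjusted p = 0.205).

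The spindle checkpoint holds anaphase back until all kinetochores are attached. For each of its 4 members the libraries of the carcinomas did not overlap, and Bub1 and Ttk were called. Ttk measured 12.7, 15.1 and 16.7 CPM in WT skin, 17.8, 17.4 and 16.7 CPM in WT SCC, 20.9, 23.6 and 16.5 CPM in the papillomas and 41.2 and 35.7 CPM in SCC labelled KO. Ttk, also called Mps1, is the kinase that starts the checkpoint signal, and its gene lies at chr9:83834689-83872389 on the plus strand. Both carcinomas labelled KO lay above all other libraries, while WT SCC overlapped skin. Ttk was 2.22-fold higher in SCC labelled KO than in WT SCC, at 1.15 ± 0.18 (adjusted p = 0.00477), and 1.37 ± 0.18 (adjusted p = 0.000143) above skin. For WT SCC against skin the change was 0.22 ± 0.16 (adjusted p = 0.285). Bub1 stood at 8.19, 8.64 and 12.7 CPM in WT skin, 24.2, 18.2 and 18.4 CPM in WT SCC, 22.8, 23 and 15.9 CPM in the papillomas and 49.9 and 31 CPM in SCC labelled KO. Bub1 is a kinase at the kinetochore that recruits the checkpoint proteins, encoded at chr2:127801122-127831865 on the minus strand. The carcinomas labelled KO were again highest, at 1.0 ± 0.26 (adjusted p = 0.0442) against WT SCC, although they differed from each other more than WT SCC libraries did. Bub1b and Mad2l1, which build the checkpoint's inhibitor of Cdc20, were at 0.59 ± 0.25 and 0.79 ± 0.29 there and did not pass. In A431 BUB1, BUB1B and MAD2L1 fell, BUB1 from 32.1, 34 and 35.3 to 24, 22.8 and 24.1 CPM with no overlap, at -0.52 ± 0.06 (adjusted p = 2.06e-06). TTK was 26.8, 27.2 and 26.9 CPM under the control guide and 27, 27.1 and 24.3 CPM under the DUSP1 guide, overlapping, at -0.04 ± 0.06 (adjusted p = 0.594).

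The chromosomal passenger complex, which corrects faulty attachments and later acts at the midzone, joins the kinase Aurora B to survivin (Birc5), Incenp and borealin (Cdca8). All 4 genes were called higher than skin in both groups labelled KO, 3 of 4 in WT SCC, and none passed between the carcinomas. Birc5 was 19, 30.8 and 34 CPM in WT skin, 65.9, 59.4 and 57.1 CPM in WT SCC, 65.8, 61.7 and 63.2 CPM in the papillomas and 101 and 66.5 CPM in SCC labelled KO. Every lesion lay above skin, with 1.12 ± 0.21 (adjusted p = 0.00184) in WT SCC. Library 2 of SCC labelled KO, at 66.5 CPM, lay close to the top of WT SCC. Aurkb measured 7.47, 10.9 and 18.5 CPM in WT skin, 15.7, 17.7 and 18.6 CPM in WT SCC, 24.7, 18.6 and 27.5 CPM in the papillomas and 27.6 and 24 CPM in SCC labelled KO. WT SCC overlapped skin for Aurkb, and the change of 0.49 ± 0.28 (adjusted p = 0.174) did not pass, while SCC labelled KO stood 1.06 ± 0.31 (adjusted p = 0.0155) above skin. AURKB was the only human member called higher, while PLK1 and ESPL1 also lay above 0: it was 23.8, 21.4 and 24.5 CPM under the control guide and 32.2, 31 and 30.4 CPM under the DUSP1 guide. The DUSP1 guide libraries all lay above the controls, at 0.43 ± 0.06 (adjusted p = 3.38e-05), and the call held in each of 11 alternatives. Its partners did not follow it. BIRC5 was 83.6, 81.6 and 86 CPM under the control guide and 72.3, 73 and 74.3 CPM under the DUSP1 guide, a change of -0.19 ± 0.05 (adjusted p = 0.00253), CDCA8 changed by -0.43 ± 0.06 (adjusted p = 1.16e-05) and INCENP, with overlapping groups, by -0.13 ± 0.06 (adjusted p = 0.111).

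The centromere and outer kinetochore genes build the site where microtubules grip a chromosome. Against skin 4, 4 and 5 of 6 were called higher in WT SCC, papilloma and SCC labelled KO, where 16.9%, 17.1% and 20.5% of all genes were. Between the carcinomas none passed, where 4.48% of all genes were called higher. Cenpe stood at 9.91, 20.6 and 23.7 CPM in WT skin, 43.3, 41.3 and 38 CPM in WT SCC, 37.2, 35.1 and 34 CPM in the papillomas and 51.7 and 52 CPM in SCC labelled KO. Cenpe is the kinesin that carries chromosomes to the spindle equator. The 4 groups lined up without overlap, with papilloma just below WT SCC, but only the steps from skin passed, at 1.18 ± 0.25 (adjusted p = 0.00347) for WT SCC and 1.52 ± 0.27 (adjusted p = 0.00101) for SCC labelled KO. Cenpa, the centromeric histone, changed by 1.03 ± 0.23 (adjusted p = 0.00428) in WT SCC. Ndc80, Nuf2 and Spc25 encode parts of the complex that binds the microtubule; between the carcinomas they were at 0.73 ± 0.33, 0.79 ± 0.28 and 0.56 ± 0.32, and Cenpf, a kinetochore protein that builds up in G2, at 0.08 ± 0.31. In A431 all 6 fell, with a median of -0.60 on the log2 scale. CENPE was 36.7, 38.1 and 35.5 CPM under the control guide and 24.5, 22.8 and 24.7 CPM under the DUSP1 guide, with a change of -0.62 ± 0.06 (adjusted p = 1.92e-07). CENPF changed by -0.60 ± 0.05 (adjusted p = 7.49e-08) and CENPA by -0.78 ± 0.13 (adjusted p = 8.27e-05).

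Spindle motors and microtubule proteins were called higher than skin in 5 of 6 cases in WT SCC and in 6 of 6 in each group labelled KO. Hmmr was 6.31, 12.7 and 14.1 CPM in WT skin, 30.0, 26.4 and 28.1 CPM in WT SCC, 26.4, 31.1 and 23.3 CPM in the papillomas and 57.2 and 49.6 CPM in SCC labelled KO. Hmmr organises spindle microtubules at the poles. It rose 1.35 ± 0.25 (adjusted p = 0.00162) in WT SCC and 2.27 ± 0.27 (adjusted p = 9.48e-05) in SCC labelled KO, and the carcinomas labelled KO lay above all other libraries, although 0.92 ± 0.27 (adjusted p = 0.0597) against WT SCC missed the threshold. Kif11 stood at 12.4, 22.4 and 34.8 CPM in WT skin, 34.7, 34.3 and 32.7 CPM in WT SCC, 42.1, 42.9 and 34.4 CPM in the papillomas and 75 and 64 CPM in SCC labelled KO. Kif11 is the motor that pushes the spindle poles apart. Here skin library 3 reached the WT SCC level, and the groups overlapped at 0.55 ± 0.28 (adjusted p = 0.139). Kif4, a chromosome motor that shortens midzone microtubules (gene at chrX:100625737-100727214 on the plus strand), was the one member of this role past the threshold between the carcinomas, from 21.6, 19.9 and 19.5 CPM in WT SCC to 34.3 and 36.4 CPM, at 0.80 ± 0.22 (adjusted p = 0.0468). The annotation places Pdzd11 over part of Kif4 on the opposite strand, and the strand setting of the counting is not given. In A431 all 5 members measured fell. TPX2, which activates Aurora A on the spindle, was 138, 146 and 142 CPM under the control guide and 99.1, 95.2 and 94.2 CPM under the DUSP1 guide, at -0.56 ± 0.05 (adjusted p = 3.16e-08). DLGAP5, a microtubule stabiliser, was 43.5, 45.7 and 44.1 CPM under the control guide and 29.3, 27.1 and 28.5 CPM under the DUSP1 guide, at -0.65 ± 0.06 (adjusted p = 4.53e-08). Neither gene's groups overlapped. KIF11 was 63.9, 66.2 and 65.7 CPM under the control guide and 45.2, 47.3 and 48.1 CPM under the DUSP1 guide and changed by -0.48 ± 0.05 (adjusted p = 5.84e-07). KIF4A, the human gene for this motor, is outside the symbol rule and was picked with its values in view. It was 36.4, 35.9 and 37.2 CPM under the control guide and 25.7, 24.2 and 26.4 CPM under the DUSP1 guide, a change of -0.52 ± 0.06 (adjusted p = 1.08e-06).

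Anaphase and proteolysis held both a strong riser and the exception. Cdc20 measured 15.9, 32.3 and 34.5 CPM in WT skin, 72.6, 86.7 and 78.3 CPM in WT SCC, 103, 89.6 and 115 CPM in the papillomas and 123 and 123 CPM in SCC labelled KO. Cdc20 activates the anaphase-promoting complex. All lesions lay far above skin, by 1.52 ± 0.24 (adjusted p = 0.000617), 1.89 ± 0.24 (adjusted p = 0.000177) and 2.16 ± 0.26 (adjusted p = 0.000102) in WT SCC, papilloma and SCC labelled KO. Ube2c was 13.1, 28.1 and 36.8 CPM in WT skin, 62.4, 58.4 and 59.2 CPM in WT SCC, 57, 54.2 and 66.3 CPM in the papillomas and 84.9 and 77.7 CPM in SCC labelled KO. Ube2c is the ubiquitin-conjugating enzyme of that complex, and it rose by 1.21, 1.19 and 1.64. The annotation lets Tnnc2, a muscle gene, overlap Ube2c on the other strand, and Elovl1 overlap Cdc20, so shared reads cannot be told apart. Espl1 stood at 8.24, 13.2 and 14.9 CPM in WT skin, 11, 13.5 and 11.2 CPM in WT SCC, 13.4, 10.9 and 16.5 CPM in the papillomas and 10.7 and 10.6 CPM in SCC labelled KO. The groups overlapped in all 3 comparisons with skin, where its changes were -0.03 ± 0.23, 0.17 ± 0.23 and -0.19 ± 0.26, and it passed in none of the 7 comparisons. In A431 CDC20 was 133, 132 and 138 CPM under the control guide and 98.4, 104 and 104 CPM under the DUSP1 guide, at -0.39 ± 0.05 (adjusted p = 2.25e-06), and UBE2C was 88.1, 84.9 and 88.7 CPM under the control guide and 72.7, 74.7 and 76 CPM under the DUSP1 guide, at -0.23 ± 0.05 (adjusted p = 0.000714). Both sets of libraries were apart. ESPL1 changed by 0.13 ± 0.07 (adjusted p = 0.148), with overlap.

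Midzone and cytokinesis was the role in which every member, 5 of 5, was called higher in SCC labelled KO than in WT SCC, with a median of 1.01 on the log2 scale. These calls rest on few libraries. All 5 were lost without library 1 of SCC labelled KO, and those of Kif23 and Ect2 without any 1 of the 5 libraries. Kif20a was also lost without library 1 or 2 of WT SCC, and Anln without library 2 of WT SCC. Prc1 stood at 13.1, 18.2 and 17.1 CPM in WT skin, 33.9, 34.2 and 38 CPM in WT SCC, 47.5, 44.9 and 37 CPM in the papillomas and 87 and 64 CPM in SCC labelled KO. Prc1 bundles the antiparallel microtubules of the midzone, and its gene lies at chr7:80294450-80316259 on the plus strand. Both carcinomas labelled KO lay above every other library, at 1.09 ± 0.18 (adjusted p = 0.00677) against WT SCC. Prc1 also had the smallest p of all members against skin in each lesion, at 1.13 ± 0.17 (adjusted p = 0.000408), 1.42 ± 0.17 (adjusted p = 0.000114) and 2.23 ± 0.18 (adjusted p = 1.36e-05). Rccd1 overlaps it on the opposite strand. Anln was 18.9, 29.4 and 29.6 CPM in WT skin, 49.3, 43.8 and 49.5 CPM in WT SCC, 63.6, 65.7 and 43.7 CPM in the papillomas and 111 and 94.7 CPM in SCC labelled KO. Anln encodes anillin, the scaffold of the contractile ring, at chr9:22332012-22389188 on the minus strand. The carcinomas labelled KO were again highest, at 1.11 ± 0.22 (adjusted p = 0.0136) against WT SCC and 1.98 ± 0.22 (adjusted p = 5.89e-05) against skin. Kif20a measured 8.12, 12.4 and 11.7 CPM in WT skin, 19, 19.8 and 21.1 CPM in WT SCC, 25.6, 25.1 and 21.8 CPM in the papillomas and 40.2 and 34.5 CPM in SCC labelled KO. Kif20a is the midzone motor that brings Plk1 and the passenger complex into place. It changed by 0.90 ± 0.18 (adjusted p = 0.0158) between the carcinomas and by 1.17 ± 0.17 (adjusted p = 0.00035) from skin to papilloma. Cdc23 overlaps it on the other strand. Kif23, which with Racgap1 forms centralspindlin, rose by 0.90 ± 0.21 (adjusted p = 0.0268), from 23.6, 22.3 and 23.3 CPM in WT SCC to 45.6 and 40.4 CPM. Ect2, the exchange factor that activates RhoA at the cleavage furrow, rose by 1.01 ± 0.26 (adjusted p = 0.0417), from 24, 21.9 and 26.2 CPM to 51.1 and 45.9 CPM. With both, the 2 groups did not overlap. Their loci are chr9:61915905-61946774 on the minus strand and chr3:27097222-27153878 on the minus strand.

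The same role fell in A431, with 4 of 5 called lower. KIF20A was 45, 44.8 and 45.5 CPM under the control guide and 29.2, 29.6 and 26.6 CPM under the DUSP1 guide, at -0.66 ± 0.06 (adjusted p = 4.65e-08). ANLN was 114, 124 and 112 CPM under the control guide and 84.4, 78.4 and 76.4 CPM under the DUSP1 guide, at -0.55 ± 0.05 (adjusted p = 2.3e-07). For both the DUSP1 guide libraries lay below all controls. KIF23 and ECT2 changed by -0.43 ± 0.05 and -0.21 ± 0.05. PRC1 was 0.947, 1.46 and 1.06 CPM under the control guide and 1.15, 1.14 and 0.996 CPM under the DUSP1 guide, values set by few counts, and changed by -0.09 ± 0.24 (adjusted p = 0.796).

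The last role pairs the marker Ki-67 with topoisomerase II alpha, which untangles sister chromatids. Mki67 stood at 53, 132 and 179 CPM in WT skin, 210.3, 198 and 171 CPM in WT SCC, 181, 163 and 183 CPM in the papillomas and 231 and 230.1 CPM in SCC labelled KO. Skin library 3 overlapped WT SCC and papilloma. Against skin the changes were 0.67 ± 0.32 (adjusted p = 0.119), 0.53 ± 0.32 (adjusted p = 0.209) and 0.92 ± 0.35 (adjusted p = 0.0535), none past the threshold, and between the carcinomas 0.26 ± 0.36 (adjusted p = 0.72). Top2a was 42.8, 83.5 and 122 CPM in WT skin, 164, 144 and 142 CPM in WT SCC, 188, 186 and 149 CPM in the papillomas and 319 and 257 CPM in SCC labelled KO. All lesions lay above skin and the carcinomas labelled KO above the rest. Top2a rose by 0.86 ± 0.29 (adjusted p = 0.0366), 1.07 ± 0.29 (adjusted p = 0.0139) and 1.80 ± 0.32 (adjusted p = 0.00106). The WT SCC call was lost in 7 of 11 alternatives, with adjusted p up to 0.1, among them leaving out any 1 WT SCC library. The change of 0.94 ± 0.32 (adjusted p = 0.0964) between the carcinomas did not pass. MKI67 had the smallest p of any member in A431. It was 170.2, 176 and 167 CPM under the control guide and 105, 108 and 114 CPM under the DUSP1 guide, with every DUSP1 guide library below every control, at -0.65 ± 0.05 (adjusted p = 6.23e-09) or 1.57-fold lower. TOP2A was 197, 205 and 197 CPM under the control guide and 159.9, 159 and 150.2 CPM under the DUSP1 guide, also without overlap, at -0.35 ± 0.05 (adjusted p = 6.22e-06).

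**Figure D4:**
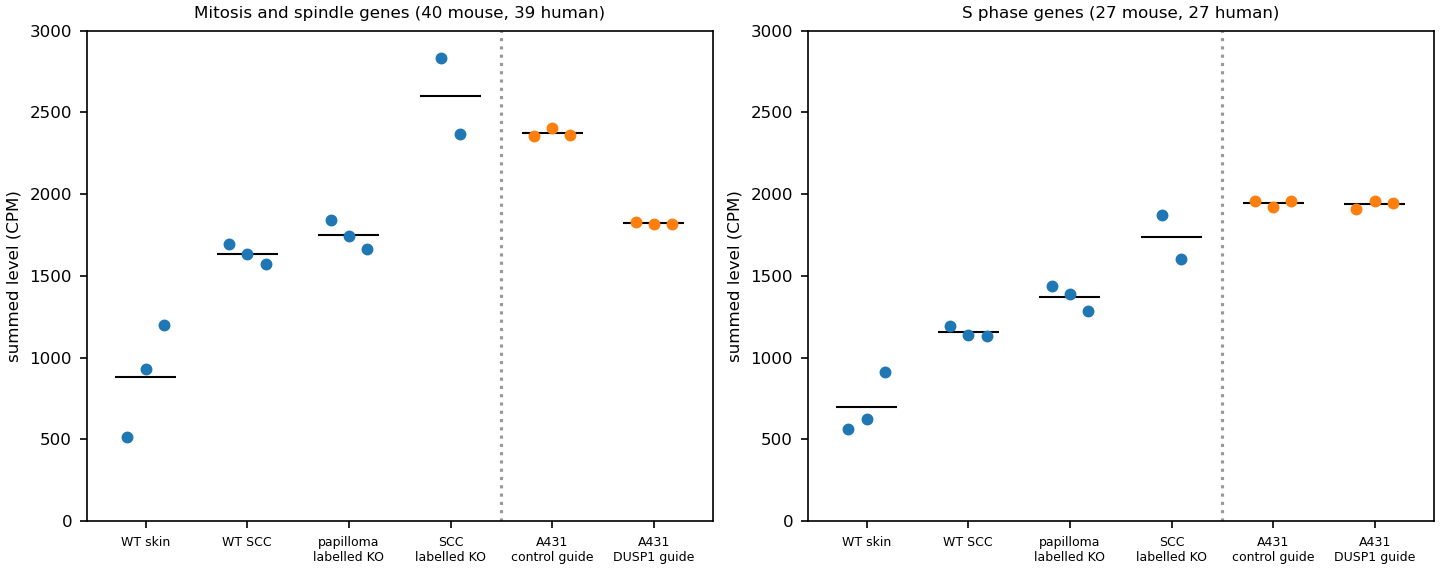
Summed CPM per library of the mitosis and spindle genes (left) and of 27 S phase genes (right), with a point per library and a line at each group mean; the dotted line parts mouse from A431. Mitosis sums fall from 2356 to 2408 CPM to 1816 to 1832 CPM under the DUSP1 guide while S phase sums overlap.

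The S phase genes, which copy the chromosomes before mitosis, were measured beside the members. Their sums were 561, 623 and 911 CPM in skin, 1195, 1137 and 1132 CPM in WT SCC, 1437, 1388 and 1286 CPM in papilloma and 1870 and 1603 CPM in SCC labelled KO, an order like that of the members. The members' sum divided by that of S phase was 1.39 to 1.44 in WT SCC, 1.48 to 1.52 in SCC labelled KO and 1.26 to 1.30 in papilloma. In skin the ratio was 0.919, 1.49 and 1.32 and so spanned WT SCC and papilloma and reached SCC labelled KO. In A431 the S phase sums were 1960, 1922 and 1960 CPM under the control guide and 1908, 1957 and 1947 CPM under the DUSP1 guide, and overlapped, while the ratio went from 1.20 to 1.25 down to 0.928 to 0.960. Of 27 S phase genes 5 were called higher and 10 lower there, where 23.1% and 24.5% of all genes were, with RRM2 (ribonucleotide reductase) at -0.62 ± 0.05 (adjusted p = 1.81e-08) and TK1 (thymidine kinase) at 0.42 ± 0.05 (adjusted p = 1.84e-06). Between the mouse carcinomas 4 of 27 were higher and 0 lower, where 4.48% and 3.38% of all genes were. Rrm1 was at 0.89 ± 0.18 (adjusted p = 0.0166), Prim1 at 0.83 ± 0.17 (adjusted p = 0.0178) and Pola1 at 1.06 ± 0.22 (adjusted p = 0.0178).

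Genes of the same machinery outside the 40 were read from further lists. Between the mouse carcinomas, 1 of 12 condensin and cohesion genes passed, Smc2 at 1.10 ± 0.26 (adjusted p = 0.0269), and 1 of 18 other spindle, motor and cytokinesis genes, Cep55, which recruits the abscission machinery, at 1.03 ± 0.26 (adjusted p = 0.0387). By edgeR 0 of 21 other kinetochore genes, 0 of 10 other G2/M regulators and 0 of 12 subunits of the anaphase-promoting complex passed. Of all genes 4.48% were called higher there. At an unadjusted p below 0.05 there were 12, 4 and 2 of these genes, where 5537 of 22371 genes passed in either direction. In A431 the same lists gave 9 lower and 1 higher of 12, 12 and 0 of 18, 10 and 1 of 21, 6 and 1 of 10, and 5 and 3 of 12, where 24.5% of all genes were lower and 23.1% higher. KNL1, the kinetochore scaffold, was at -0.72 ± 0.07 (adjusted p = 2.22e-07), and CKAP2L, a spindle protein, at -0.80 ± 0.07 (adjusted p = 5.35e-08). Among those higher were NCAPD3 of condensin II at 0.46 ± 0.06 (adjusted p = 2.47e-06) and ANAPC5 at 0.38 ± 0.05 (adjusted p = 2.6e-06). Of the 13 genes for MuvB, B-MYB, E2F and NF-Y regulators, 6 were lower and 0 higher in A431, with TFDP1 at -0.41 ± 0.05 (adjusted p = 1.64e-06) and B-MYB (MYBL2) at -0.20 ± 0.05 (adjusted p = 0.00165). Tfdp1, the partner of E2F proteins, was the one of 13 higher between the mouse carcinomas, at 0.52 ± 0.14 (adjusted p = 0.042). Against skin 2, 0 and 3 of 12 subunits of the anaphase-promoting complex were called higher in WT SCC, papilloma and SCC labelled KO, where 16.9%, 17.1% and 20.5% of all genes were. Anapc5 was lower in each, at -0.71 ± 0.11, -0.53 ± 0.11 and -0.74 ± 0.13.

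Mouse and A431 share no samples, and for most members their changes had opposite signs. Of the 39 members tested in both, 36 were above 0 in SCC labelled KO against WT SCC and below 0 under the DUSP1 guide, Espl1 was the reverse, and Plk1 and Aurkb were above 0 in both. Of the 11861 genes with one matching symbol tested in both, 28.6% were above 0 in mouse and below 0 in A431, and 24.6% the reverse. Of the 7 members called higher in mouse and tested in A431, 5 were called lower there: Bub1, Kif20a, Kif23, Anln and Ect2. Of all 724 matched genes called higher in mouse, 34.9% were called lower in A431. The tissues differ in several ways beside the label. Mouse sections held stroma, where leukocyte markers summed to 113 to 141 CPM in WT SCC and 75.7 and 110.4 CPM in SCC labelled KO, and fibroblast markers to 2322 to 3961 CPM and 1027 and 3225 CPM. The neutrophil marker sum went the other way without overlap, with 82.6 to 113 CPM in WT SCC and 305 and 185 CPM in SCC labelled KO. Of 4 neutrophil genes tested there 0 were called, with 3 separated higher and 1 lower, where 22.9% and 23.7% of all genes were. In A431 cells leukocyte markers summed to 1.80 to 2.81 CPM under the control guide and 4.20 to 4.61 CPM under the DUSP1 guide, and fibroblast markers to 126 to 127 CPM and 75.8 to 87.9 CPM. Basal markers were at 46950 to 50970 CPM over both guides, and suprabasal markers at 24070 to 24660 CPM under the control guide and 16260 to 18000 CPM under the DUSP1 guide. Their part in the results was not tested.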

How the data were processed

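RNA of 11 mouse and 6 A431 libraries was sequenced with a stranded mRNA kit, per the labels' protocols. The deposited values are raw read counts per gene and library. The submitters' processing notes name HISAT2, StringTie and DESeq, with builds mm10 and hg38. The annotation, the counting rule and the strand setting were not given in the sources used here. Features without a name (1456 of 55988 in mouse, 223 of 58958 in A431, at most 0.496% of counts) were left out. Counts were filtered and scaled in edgeR 4.0.16 (R 4.3.3, filterByExpr, TMM), and fitted with its quasi-likelihood test, with all 4 mouse groups in one model and A431 in another. Benjamini-Hochberg adjustment ran over 22371 and 18090 genes. The script was tested on simulated data. Alternatives were RLE factors, no filter, DESeq2 1.42.0, a replicate block, fits of the 2 compared groups and leaving out each library. Gene positions are from GENCODE M21 on GRCm38. All members are reported by role. Values per library are given for 14 landmark genes, the 3 smallest p-values per comparison and genes the results turn on. Genes of other lists are named only past the threshold. Members and lists were chosen with earlier results of these data known.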

Additional observations from a re-analysis of the deposited data

Results flagged for a closer look

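For 31 of the 39 members measured in both systems, both SCC libraries labelled KO lay above all WT SCC libraries while all A431 libraries with the DUSP1 guide lay below all controls. Over all 11861 genes tested in both, 11.8% did so. The opposite separation holds for these 31 members, which were counted because they show it. The difference between the systems was not tested. Aurkb was the one member whose libraries were separated upward in both.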

How the results depend on the processing

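No member passed the threshold in the opposite direction under any alternative run. For SCC labelled KO against WT SCC 8 members were higher. The count was 18 without the filter on low counts, 18 with DESeq2 and 28 when only the 2 compared groups were fitted. With the replicate block it was 3 (Ttk, Prc1 and Kif20a). Over all genes 1485 of 37371, 2036 of 22371, 2152 of 18463 and 474 of 22371 were called higher in these fits. Leaving out 1 library at a time gave 0 to 5, with 0 when library 1 of SCC labelled KO was missing, so none of the 8 calls held throughout. For SCC labelled KO against papilloma the count went from 0 to 6 without the filter and to 7 with DESeq2. Of all genes 210 of 37371 and 417 of 22371 were called higher there. With DUSP1 guide libraries 2 and 3 summed as 1 sample, chosen after seeing the data, the A431 counts stayed at 32 lower and 1 higher. Of all 19082 genes 4043 and 3953 were. In A431 the count higher was 1 to 3 without single libraries, with 3 (AURKB, PLK1 and ESPL1) when library 1 of the DUSP1 guide was missing. The count lower was 31 to 33. Of 18647 to 19151 genes then tested, 3498 to 4585 were called higher and 3785 to 4979 lower. The causes were not tested. Of the calls, 20 of 27, 24 of 32 and 31 of 36 held under every alternative for WT SCC, papilloma and SCC labelled KO against skin, and 32 of 33 in A431. Replicate numbers recur across groups, but same-numbered libraries did not deviate together: their correlations ran from -0.317 to 0.128 in mouse and from -0.0385 to 0.0172 in A431, and 1 of 11 and 1 of 6 libraries correlated best with its own number. The block changed no other count by over 1.5 times. The 2 libraries of SCC labelled KO and the spread of WT skin limit the mouse results, and low counts limit PRC1 in A431.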
